A study of Mus musculus with 11 samples.

Results

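The genes described here are 31 mouse genes that mark cells outside the mammary epithelium: 11 markers of immune cells, 6 of the endothelium, 5 of fibroblasts, 2 of pericytes, 4 of adipocytes, 2 of erythroid cells and 1 of nerve and Schwann cells. They were taken from a list of gene symbols, and all 31 were found among the 27179 Entrez gene identifiers counted. A filter on low counts left 17370 genes for testing, and 29 of the 31 markers passed it. The T cell gene Cd3e and the lipid droplet gene Plin1 did not pass and are given as counts only.

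The libraries are from E-cadherin-GFP females of the C57BL/6 strain aged 5 weeks, whose epithelium is marked by a GFP knock-in at the gene of this adhesion protein. Terminal end buds (TEBs), the bulbs at the front of the growing tree, and the ducts behind them were cut out under fluorescence. Cells were then sorted as negative for the lineage markers CD31, CD45 and Ter119 and positive for CD29 and CD24, with dim GFP for basal and bright GFP for luminal cells. RNA-seq was available for 3 basal duct, 3 basal TEB, 2 luminal duct and 3 luminal TEB libraries. The luminal duct libraries are replicates 1 and 3, as a further one had been dropped for want of cells. Each replicate is a pool of at least 2 mice, so a library does not stand for a single animal.

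The mammary epithelium grows through a fat pad in which adipocytes, fibroblasts, capillaries with their pericytes, nerves and leukocytes lie close to the basal layer. Macrophages in particular gather around end buds. The lineage antibodies remove leukocytes (CD45, the product of Ptprc), endothelial cells (CD31, the product of Pecam1) and red cell precursors (Ter119), whereas fibroblasts, pericytes, adipocytes and Schwann cells carry none of the 3 antigens. The levels of these genes in each library therefore gauge how much RNA of such cells, or of epithelial cells using the same genes, the library holds. In bulk libraries, fewer cells of a type and less RNA per cell cannot be told apart.

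Library totals ran from 27989137 to 49221436 counts. The sorted types showed their own markers: luminal libraries were higher in Epcam, Cdh1, Cd24a, Krt8 and Krt18 and basal libraries in Itgb1, Krt5 and Krt14, and all 8 passed the test between cell types in both structures. Mitochondrial genes took 4.34% to 10.9% of counts in 8 libraries, 17.8% in basal TEB replicate 3, 28.5% in luminal duct replicate 3 and 37.5% in basal TEB replicate 1, with 95% Wilson intervals no wider than 0.0359 points, which cover counting error only. Levels are in CPM, which scales each gene’s counts to a library of fixed size, with library sizes rescaled by TMM factors. A count of 0 allows up to 3 counts, which is 0.0572 to 0.173 CPM depending on the library.

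Every marker had counts in at least 1 library, and few were steady. Of the 31 genes, 26 had 0 counts in at least 1 library. The number at 0 was 20 in basal TEB replicate 1 and 20 in luminal duct replicate 1, against 0 in basal TEB replicate 2 and 3 in luminal TEB replicate 2. Of all genes tested, 25.5% were at 0 in basal TEB replicate 1, 13.8% in luminal duct replicate 1 and 3.48% in basal TEB replicate 2. The median biological coefficient of variation of the 29 tested markers between replicates was 1.63, compared with 0.42 over all genes tested. Among the markers it ran from 0.355 for Cd68 to 2.55 for Tyrobp. Markers and all genes were not matched for level, and the part of low counts in this gap was not tested. Basal duct replicate 2 held the highest level of 12 markers and luminal duct replicate 3 of 10, so 22 of the 31 peaked in one or the other. Of all genes tested, 13.6% peaked in basal duct replicate 2 and 15.8% in luminal duct replicate 3. These libraries were singled out after the values had been seen.

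**Figure D1:**
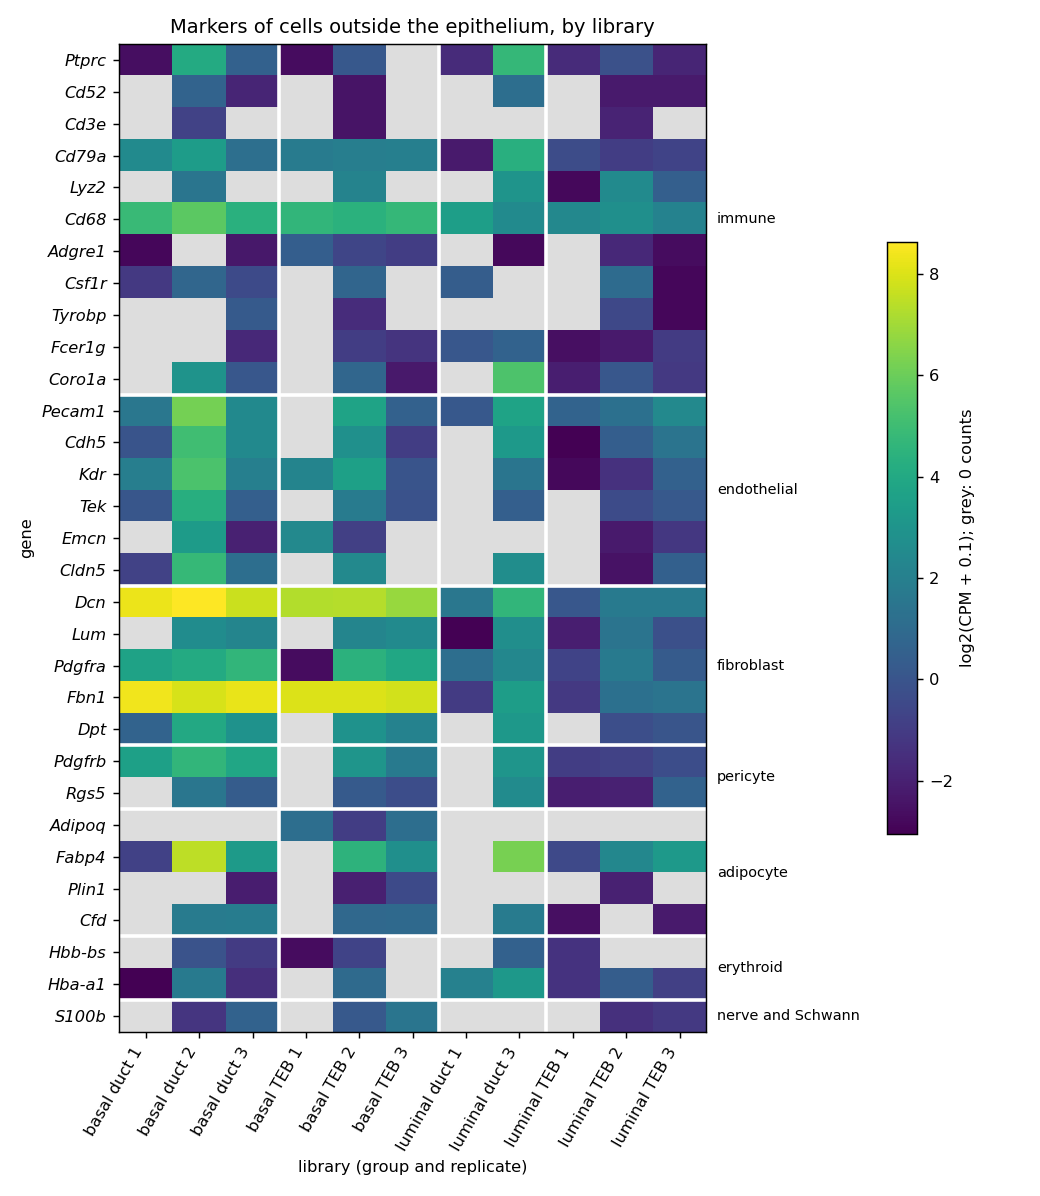
Heat map of the 31 markers (rows, grouped by cell type) in the 11 libraries (columns), as log2 of CPM plus 0.1, with 0 counts in grey. Dcn and Fbn1 are bright in all basal libraries, the endothelial rows are brightest in basal duct replicate 2, and Ptprc, Cd79a, Lyz2 and Coro1a are brightest in luminal duct replicate 3.

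Among the immune markers, Ptprc, Coro1a, Cd52 and Cd79a were highest in the same pair of libraries, and Cd68 followed the sorted cell type. Ptprc (chr1:138062859-138175756), which encodes the phosphatase CD45 that the sort selected against, was at 0.0599, 16.9 and 1.39 CPM in basal duct replicates 1 to 3. The basal TEB libraries had 0.0577, 1.03 and 0 CPM. In luminal cells it was at 0.228 and 26.5 CPM in the ducts and 0.224, 0.80 and 0.173 CPM in the TEBs. Basal duct replicate 2 and luminal duct replicate 3 each had 644 counts of it, and the other 9 libraries between 0 and 54. Coro1a (chr7:126699774-126704816), an actin-binding protein of leukocytes, was at 0, 7.53 and 0.975 CPM in basal ducts, 0, 1.66 and 0.112 CPM in basal TEBs, 0 and 41.8 CPM in luminal ducts and 0.135, 0.991 and 0.366 CPM in luminal TEBs. In luminal ducts the 1016 counts of Coro1a all came from replicate 3.

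Cd52, a small surface glycoprotein of lymphocytes, had 56 counts in basal duct replicate 2 and 52 in luminal duct replicate 3, and at most 7 in any other library. Lyz2, the lysozyme of macrophages and neutrophils, showed another order. It reached 7.98 CPM in luminal duct replicate 3, 5.79 CPM in luminal TEB replicate 2, 4.44 CPM in basal TEB replicate 2 and 2.68 CPM in basal duct replicate 2, and had 0 counts in 5 libraries. Cd3e, a chain of the T cell receptor complex, had 19 counts in basal duct replicate 2, 9 in luminal TEB replicate 2, 4 in basal TEB replicate 2 and none elsewhere.

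The macrophage and myeloid genes Adgre1 (F4/80), Csf1r (the CSF1 receptor), Tyrobp and Fcer1g (signalling adaptors of myeloid receptors) were low in every library, at no more than 1.27, 1.92, 1.10 and 1.44 CPM. Adgre1 was highest in basal TEB replicate 1 with 22 counts, and its 3 basal TEB libraries lay above the 3 basal duct libraries. Tyrobp was at 0 in both libraries that led for Ptprc, and Csf1r was at 0 in luminal duct replicate 3 and at 1.63 CPM in basal duct replicate 2. In luminal duct replicate 3, which had most Ptprc and Coro1a, Lyz2 and Fcer1g were also at their highest, and Adgre1, Csf1r and Tyrobp had 1, 0 and 0 counts.

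Promoter sequences are shown for immune markers, of which Ptprc, Coro1a, Cd52 and Cd79a shared their 2 highest libraries and Cd68 was higher in each basal than in each luminal library. RefSeq entries were held for 21 of the 31 markers, as windows of 250 bases before a start on GRCm38.p6, and 10 had none, among them Cd52, Dcn, Pecam1 and Fabp4. The motif AGGAAG is a form of the sites that ETS-family factors such as PU.1 bind. It was searched on both strands and was chosen out of 6 motifs after the counts had been seen. The others were CAGGAAG and GAGGAAG, which contain it, GGAAGT, which can overlap it, CGGAAG and TATAAA, found in 10.8%, 10.6%, 19.7%, 13.6% and 12.4% of all windows and in 7, 0, 5, 1 and 1 of the 9 immune windows. AGGAAG stood in at least 1 window of 6 of the 7 immune markers with an entry, compared with 32.3% of 27025 genes. It stood in 7 of the 9 immune windows, compared with 29.5% of the 32851 windows of all genes. The windows of Ptprc overlap, and a match that they share is counted in both. AGGAAG stood in 1 of 4 endothelial, 0 of 3 fibroblast, 1 of 3 adipocyte, 0 of 2 erythroid and 0 of 1 pericyte markers with an entry, and in S100b. The following stretches are of the CD45 gene Ptprc, of 2 myeloid genes and of Cd68, the immune marker without the motif. They run 5′ to 3′ on the strand of the gene and hold no exon base of GENCODE, with AGGAAG or its reverse complement in capitals.
Ptprc, chr1:138175307-138175555, minus strand: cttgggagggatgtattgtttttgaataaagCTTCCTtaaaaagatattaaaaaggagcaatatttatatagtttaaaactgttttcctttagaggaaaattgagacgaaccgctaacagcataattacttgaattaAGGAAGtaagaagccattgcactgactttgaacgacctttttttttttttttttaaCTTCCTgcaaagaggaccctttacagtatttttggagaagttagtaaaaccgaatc
Lyz2, chr10:117282322-117282522, minus strand: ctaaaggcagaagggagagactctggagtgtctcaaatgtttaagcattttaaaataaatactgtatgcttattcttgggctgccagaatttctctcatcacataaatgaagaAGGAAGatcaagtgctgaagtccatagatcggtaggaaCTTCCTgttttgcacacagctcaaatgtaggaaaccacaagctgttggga
Fcer1g, chr1:171234366-171234599, minus strand: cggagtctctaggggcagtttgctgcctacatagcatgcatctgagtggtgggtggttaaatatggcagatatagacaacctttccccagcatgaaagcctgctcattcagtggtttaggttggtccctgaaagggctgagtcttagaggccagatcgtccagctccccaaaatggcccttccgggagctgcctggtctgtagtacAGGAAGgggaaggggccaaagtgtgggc
Cd68, chr11:69666171-69666420, minus strand: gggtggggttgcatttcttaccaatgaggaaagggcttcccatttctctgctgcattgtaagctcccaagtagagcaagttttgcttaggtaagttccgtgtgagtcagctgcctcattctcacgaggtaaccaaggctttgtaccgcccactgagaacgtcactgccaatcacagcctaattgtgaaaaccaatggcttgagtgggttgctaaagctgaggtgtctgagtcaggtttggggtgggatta
The Ptprc stretch lies inside the outer limits of that gene, ahead of the start RefSeq gives for the window, as a longer transcript begins further upstream, and the other stretches lie ahead of the limits of their genes. The Ptprc stretch held 3 matches, that of Lyz2 2, that of Fcer1g 1 and that of Cd68 0. A match is to letters only, and the libraries hold no measure of binding.

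Cd68 and, but for 1 library, Cd79a were higher in basal than in luminal cells, unlike Ptprc. Cd68 (chr11:69664213-69666170), a glycoprotein of lysosomes that is abundant in macrophages, was at 29.4, 51.6 and 20.8 CPM in basal ducts and 25.1, 21.2 and 26.9 CPM in basal TEBs. It was at 11.1 and 5.63 CPM in luminal ducts and 5.13, 6.61 and 4.33 CPM in luminal TEBs. All 6 basal libraries lay above all 5 luminal ones. It had 1473 counts in basal duct replicate 1, where Ptprc had 3, and 435 and 959 in replicates 1 and 3 of basal TEBs, where Ptprc had 1 and 0.

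Cd79a (chr7:24897497-24901858), a chain of the B cell receptor, was at 5.69, 10.6 and 2.21 CPM in basal ducts, 3.35, 3.75 and 3.84 CPM in basal TEBs, 0.114 and 19.9 CPM in luminal ducts and 0.695, 0.419 and 0.52 CPM in luminal TEBs. Luminal duct replicate 3 was again the highest, but the other 4 luminal libraries lay below every basal library. Basal duct replicate 1 had 285 counts of Cd79a beside 3 of Ptprc and none of Cd52 or Coro1a.

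The endothelial markers were all highest in a single basal library. Pecam1 (chr11:106654213-106715281), which encodes the depleted antigen CD31, was at 2.85, 73.0 and 5.54 CPM in basal ducts and 0, 13.0 and 1.40 CPM in basal TEBs. It was at 1.02 and 13.0 CPM in luminal ducts and 1.48, 2.27 and 5.34 CPM in luminal TEBs. Basal duct replicate 2 thus had 25.6 times the level of replicate 1 and 13.2 times that of replicate 3. Per length, its 22.1 RPKM (CPM over the gene length in kilobases) stood at the 81.9th percentile of the genes tested in that library, where Epcam had 83.9 RPKM.

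The other endothelial markers showed the same peak. The VE-cadherin gene Cdh5 was at 32.6 CPM there and at 0 to 9.17 CPM elsewhere. Kdr, the main VEGF receptor, was at 40.3 CPM against 0 to 12.1 CPM, and Tek, the angiopoietin receptor, at 19.1 CPM against 0 to 3.45 CPM. Cldn5, a tight junction claudin of vessels, was at 27.5 CPM against 0 to 6.25 CPM. For these genes and Pecam1 the ratio of basal duct replicate 2 to basal TEB replicate 2 was between 3.33 and 5.61. The ratio of basal duct replicate 2 to luminal duct replicate 3 was more uneven, from 3.55 for Cdh5 to 14.8 for Kdr. The sialomucin gene Emcn was at 10.2 CPM in basal duct replicate 2 and 0.463 CPM in basal TEB replicate 2, a ratio of 22.0. Emcn was second highest in basal TEB replicate 1, at 5.37 CPM, where Pecam1, Cdh5, Tek and Cldn5 had 0 counts and Kdr was at 4.56 CPM.

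**Figure D2:**
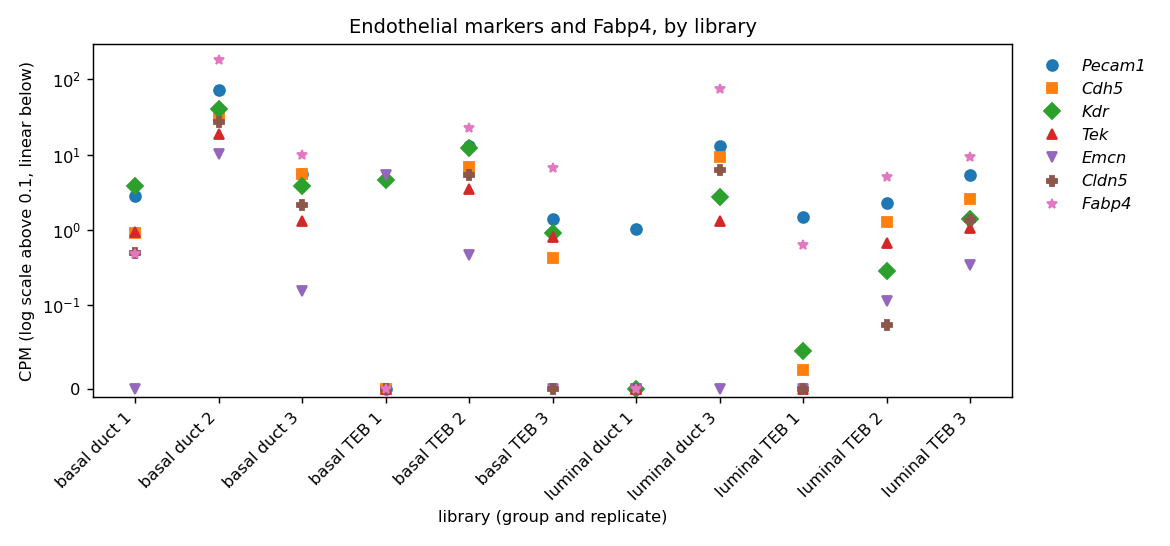
CPM (log scale above 0.1, linear below) of the 6 endothelial markers and Fabp4 in each of the 11 libraries. Every gene is highest in basal duct replicate 2, Fabp4 at 179 CPM and Pecam1 at 73.0 CPM, and in basal TEB replicate 1 only Kdr and Emcn are above 0.

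The adipocyte markers differed in which libraries held most of them. Fabp4 (chr3:10204342-10208616), a fatty acid carrier of adipocytes that capillary endothelium and macrophages also use, was at 0.479, 179 and 9.90 CPM in basal ducts, 0, 22.6 and 6.69 CPM in basal TEBs, 0 and 75.1 CPM in luminal ducts and 0.628, 5.03 and 9.34 CPM in luminal TEBs. At 278 RPKM in basal duct replicate 2 it was the marker with the highest level per length in any library. In that library and in luminal duct replicate 3, which came next, Adipoq and Plin1 had 0 counts.

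Adipoq, which encodes the adipocyte hormone adiponectin, had 37, 20 and 76 counts in the basal TEB libraries and 0 in the other 8. Plin1, which coats the lipid droplet, had 23 counts in basal TEB replicate 3 and at most 8 elsewhere. Cfd, the adipocyte protease adipsin, was at 3.39 and 3.49 CPM in basal duct replicates 2 and 3, 1.75 and 1.79 CPM in basal TEB replicates 2 and 3 and 3.37 CPM in luminal duct replicate 3, and at no more than 0.116 CPM in the other 6 libraries. Adipoq and Fabp4 therefore ordered the libraries differently.

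Of the fibroblast markers, Dcn and Fbn1 followed the basal sort, and Lum, Pdgfra and Dpt did so less closely. Dcn (chr10:97479500-97518163) encodes decorin, a small proteoglycan on collagen fibrils, and was at 318, 399 and 205 CPM in basal ducts and 157, 160 and 113 CPM in basal TEBs. In luminal cells it was at 2.89 and 24.6 CPM in ducts and 0.986, 3.14 and 3.18 CPM in TEBs. Each basal library lay above each luminal library, and luminal duct replicate 3 was the highest of the luminal ones. Per length, Dcn was at 98.6 to 191 RPKM in basal ducts, where Epcam was at 83.9 to 96.1 RPKM and Krt14 at 1078 to 1719 RPKM.

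Fbn1 (chr2:125300594-125506485), the fibrillin of elastic microfibrils, was at 337, 243 and 309 CPM in basal ducts and 263, 260 and 232 CPM in basal TEBs. It was at 0.387 and 10.9 CPM in luminal ducts and 0.359, 2.29 and 2.64 CPM in luminal TEBs. Basal duct replicate 2, where the endothelial genes peaked, had the lowest of the 3 basal duct values.

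Pdgfra, a growth factor receptor of fibroblasts, was at 12.8, 17.2 and 24.6 CPM in basal ducts and had 1, 1036 and 536 counts in basal TEBs. It was at 2.14 and 4.98 CPM in luminal ducts and 0.516, 3.24 and 1.14 CPM in luminal TEBs. Lum (lumican, another collagen-binding proteoglycan) and Dpt (dermatopontin, a matrix protein) were highest in luminal duct replicate 3, at 6.46 CPM, and in basal duct replicate 2, with 610 counts. In basal TEB replicate 1, Lum and Dpt had 0 counts and Pdgfra 1 count, while Dcn had 2720 and Fbn1 4555. In basal duct replicate 1, Lum had 0 counts beside 15936 of Dcn. Dcn and Fbn1 were thus at their basal level in libraries with little or no Lum.

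Of the pericyte markers, Pdgfrb, the receptor that draws pericytes to vessels, was at 12.1, 25.2 and 14.4 CPM in basal ducts, 0, 8.11 and 3.25 CPM in basal TEBs, 0 and 8.10 CPM in luminal ducts and 0.426, 0.495 and 0.713 CPM in luminal TEBs. Rgs5, a regulator of G protein signalling, was highest in luminal duct replicate 3 at 5.96 CPM and came to 2.82 CPM in basal duct replicate 2. Both had 0 counts in basal TEB replicate 1 and luminal duct replicate 1.

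Of the erythroid and nerve markers, Hbb-bs and S100b were low in every library, at no more than 1.40 and 2.69 CPM. Hba-a1 was higher, and reached 9.05 CPM in luminal duct replicate 3. Hba-a1, an alpha globin, had 180 and 220 counts in the luminal duct libraries, 123 in basal duct replicate 2, 90 in basal TEB replicate 2 and at most 64 elsewhere. Scaled to library size, Hba-a1 was at 4.10 CPM in luminal duct replicate 1 and 9.05 CPM in luminal duct replicate 3. Per length, its 16.2 RPKM in luminal duct replicate 3 stood at the 75.0th percentile of the genes tested there. Hba-a2, an alpha globin outside this list, was at 18.3 CPM in that library. Hbb-bs, a beta globin, had at most 34 counts. Hba-a1 and Hbb-bs have near-identical neighbouring copies, between which reads may be split, so the values of both are uncertain. S100b, a calcium-binding protein of Schwann cells that adipocytes also make, had 96 counts in basal TEB replicate 3, 56 in basal duct replicate 3, 50 in basal TEB replicate 2, at most 19 elsewhere and 0 in 5 libraries.

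Summed over each list, the order of the libraries differed between cell types. The endothelial sum was 203 CPM in basal duct replicate 2, 41.3 CPM in basal TEB replicate 2, 32.5 CPM in luminal duct replicate 3 and between 1.02 and 18.5 CPM in the other 8. The immune sum was 105 CPM in luminal duct replicate 3 and 93.0 CPM in basal duct replicate 2, and 6.30 to 35.5 CPM in the other 9. Without Cd68 and Cd79a, which were left out after their values had been seen, the remaining 9 immune markers came to 79.9 and 30.8 CPM in these libraries and 0.459 to 10.7 CPM in the others.

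The fibroblast sum was 370 to 681 CPM in basal and 2.00 to 55.8 CPM in luminal libraries. Dcn and Fbn1 were then left out, after their values had been seen. With both left out the sum was 0.0577 to 39.4 CPM in basal and 0.65 to 20.3 CPM in luminal libraries, and the cell types overlapped. That overlap rested on basal TEB replicate 1, the lowest basal library, and luminal duct replicate 3, the highest luminal one. Other basal libraries were at 14.3 to 39.4 CPM and other luminal ones at 0.65 to 6.63 CPM. The adipocyte sum was 182 CPM in basal duct replicate 2 and 78.5 CPM in luminal duct replicate 3, nearly all of it Fabp4, and at most 24.9 CPM elsewhere. Luminal duct replicate 1 and luminal TEB replicate 1, with sums over all 31 markers of 24.2 and 11.7 CPM, held least of these 31 genes. Basal duct replicate 2 held most, with 1191 CPM. Dcn and Fbn1, which followed the basal sort, are part of these sums.

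**Figure D3:**
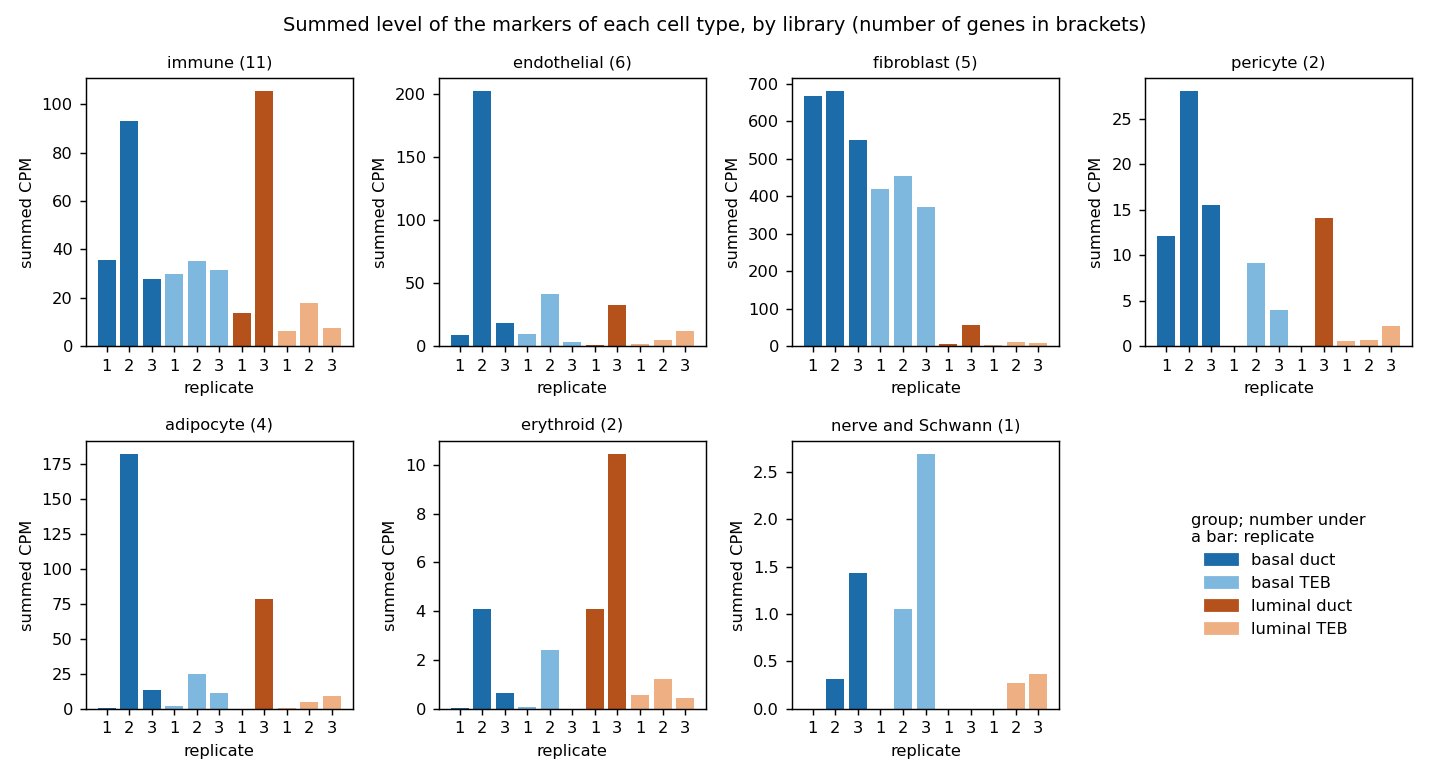
Summed CPM of the markers of each cell type, one bar per library, with the group in colour and the replicate number under the bar. Basal duct replicate 2 has the tallest endothelial (203 CPM) and adipocyte (182 CPM) bars and luminal duct replicate 3 the tallest immune bar (105 CPM), while the fibroblast bars separate basal from luminal libraries.

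A longer list held 96 further markers of the same cell types. Of these, 33 were highest in basal duct replicate 2 and 31 in luminal duct replicate 3. Summed, they came to 675 CPM in luminal duct replicate 1, 496 CPM in basal duct replicate 1 and 436 CPM in luminal TEB replicate 1, the lowest. In luminal duct replicate 1, the fibroblast marker Col6a3 was at 231 CPM and the immune marker Lcp1 at 141 CPM. The 18 further endothelial markers had 14 of their peaks in basal duct replicate 2, and the 27 further immune markers had 17 of theirs in luminal duct replicate 3. The further endothelial sum, 470 CPM in basal duct replicate 2, was second highest in luminal duct replicate 3 at 244 CPM, and it was 149.9 to 171 CPM in the luminal TEB libraries against 29.2 to 108 CPM in the basal TEB libraries. Eng, the TGF-beta co-receptor endoglin, made up much of it in luminal cells, with a mean of 108 CPM in luminal TEBs.

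**Figure D4:**
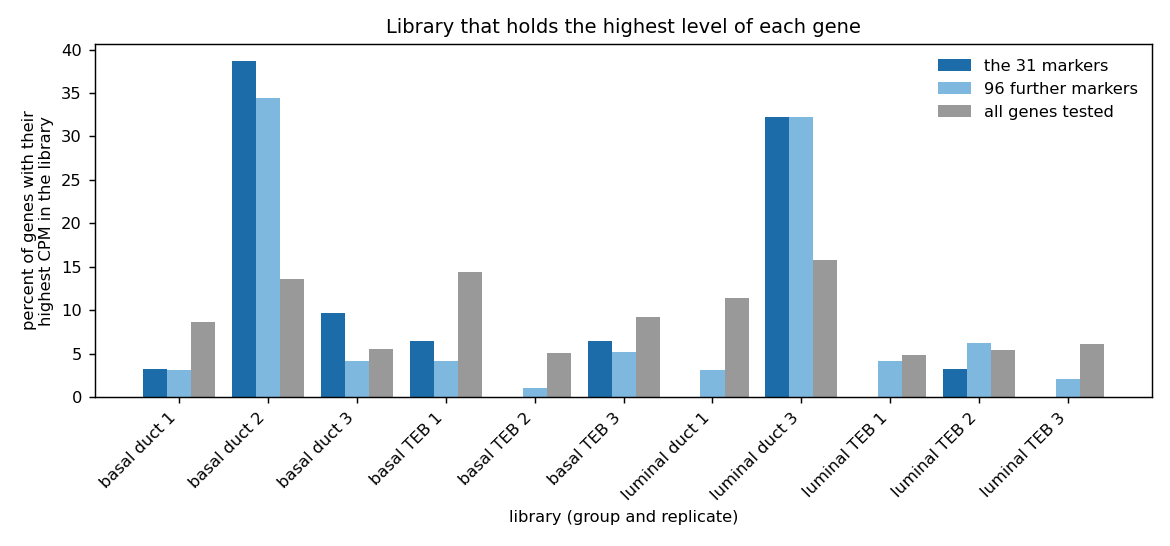
Percent of genes whose highest CPM lies in each library, for the 31 markers, the 96 further markers and all 17370 genes tested. Basal duct replicate 2 and luminal duct replicate 3 hold 12 and 10 of the 31 markers, against 13.6% and 15.8% of all genes.

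Between basal and luminal cells of ducts, 3 of the 29 tested markers differed by the quasi-likelihood test of edgeR at a Benjamini-Hochberg adjusted p (FDR) below 0.05, and all 3 were higher in basal cells. Of all genes tested, 22.3% passed in this comparison and 12.6% were higher in basal cells. Dcn was at 307 ± 97.0 (SD, n = 3) CPM in basal and 13.8 ± 15.4 (SD, n = 2) CPM in luminal ducts, a log2 fold change of 4.49 ± 0.81 (SE, edgeR FDR = 0.00173). Fbn1 was at 296 ± 48.3 (SD, n = 3) against 5.66 ± 7.46 (SD, n = 2) CPM, a log2 fold change of 5.75 ± 1.12 (SE, edgeR FDR = 0.00291). Cd68 was at 33.9 ± 15.9 (SD, n = 3) against 8.37 ± 3.87 (SD, n = 2) CPM, a log2 fold change of 2.02 ± 0.46 (SE, edgeR FDR = 0.00801).

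None of the 6 endothelial markers passed in ducts in edgeR, and DESeq2 called 1 (Emcn). The share of all genes that DESeq2 called is not given here. The median log2 fold change of the 6 was 2.70, and without basal duct replicate 2 it was 0.13, with 3 of the 6 above 0. Over the 29 markers the median log2 fold change was 0.91, compared with 0.08 over all genes, and it did not move when the genes with a group at 0 counts were set to their lower bound. Without basal duct replicate 2 it was -0.14. The libraries of the groups did not overlap for 6 markers that were higher in basal ducts (Dcn, Fbn1, Cd68, Pdgfra, Pdgfrb and Kdr), as for 24.8% of all genes, and for 2 that were lower (Fcer1g and Hba-a1), as for 21.2% of all genes. Without luminal duct replicate 3 the log2 fold change of Cd68 was 1.61 and did not pass (edgeR FDR = 0.0639), without it and basal TEB replicate 1 it was 1.61 and passed (edgeR FDR = 0.0467), and without it and basal duct replicate 2 it was 1.18 and did not pass (edgeR FDR = 0.107). Dcn and Fbn1 passed in all 3 cases. Without luminal duct replicate 3, Cd79a and Pdgfrb passed in place of Cd68.

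In TEBs, 4 of the 29 markers were higher in basal cells and none was lower, where 25.1% of all genes passed and 13.2% were higher. Dcn was at 143 ± 26.1 (SD, n = 3) against 2.44 ± 1.26 (SD, n = 3) CPM, a log2 fold change of 5.87 ± 0.73 (SE, edgeR FDR = 8.86e-05). Fbn1 was at 252 ± 17.0 (SD, n = 3) against 1.76 ± 1.23 (SD, n = 3) CPM, a log2 fold change of 7.14 ± 1.00 (SE, edgeR FDR = 0.000216). Cd68 was at 24.4 ± 2.90 (SD, n = 3) against 5.36 ± 1.16 (SD, n = 3) CPM, a log2 fold change of 2.19 ± 0.40 (SE, edgeR FDR = 0.0016).

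The fourth gene was Adipoq (edgeR FDR = 0.0396), at a mean of 1.56 CPM in basal TEBs and 0 counts in the luminal TEB libraries. Against the limit of 3 counts per library it was at least 23.2-fold higher in basal TEBs. Its call was lost when any of the 6 TEB libraries was left out (FDR between 0.0538 and 0.115), so it rests on 20 to 76 counts per library. The groups did not overlap for 6 markers that were higher in basal TEBs, the 4 called ones with Cd79a and Adgre1, as for 22.6% of all genes, and for 0 that were lower, as for 27.2% of all genes. The median log2 fold change of the 29 markers was 1.57, against 0.04 over all genes, and -0.26 without basal TEB replicate 2.

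**Figure D5:**
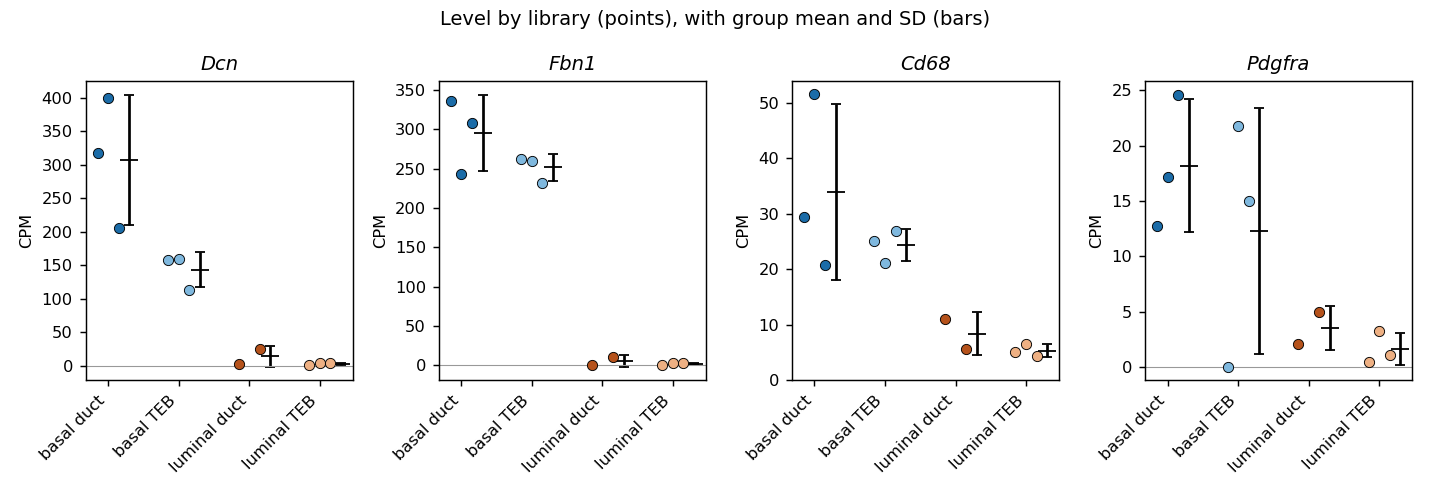
CPM of Dcn, Fbn1, Cd68 and Pdgfra in each library (points) of the 4 groups, with the group mean and SD beside them. For Dcn, Fbn1 and Cd68 all basal points lie above all luminal points, whereas Pdgfra is at 0.0577 CPM in 1 basal TEB library.

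Of the further markers, 85 were tested. In ducts 6 were higher and 5 lower in basal cells, and in TEBs 8 were higher and 4 lower, at the backgrounds given above. Those with the largest fitted changes in ducts were Cspg4 (the NG2 proteoglycan of pericytes), Plin4 (a lipid droplet protein) and Abcc9 (a channel subunit of pericytes), which had 0 counts in luminal ducts and were at least 70.4-fold, 46.9-fold and 17.9-fold higher in basal ducts. In TEBs they were Serpinf1, a secreted anti-angiogenic protein of fibroblasts, with a log2 fold change of 7.77 ± 0.74 (SE, edgeR FDR = 1.11e-05), the adipocyte hormone gene Lep, at 0 counts in luminal TEBs and at least 7.88-fold higher in basal TEBs, though the groups overlapped, and the neuronal tubulin gene Tubb3, with a log2 fold change of 6.91 ± 1.70 (SE, edgeR FDR = 0.0101). The fitted change of a gene at 0 counts in a group depends on the prior count, and at their bounds Abcc9 came below Serpinf1 in ducts (log2 fold change 4.89) and Lep below the pericyte and endothelial adhesion gene Mcam in TEBs (log2 fold change 4.27).

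Between TEBs and ducts, no marker passed the test in either cell type. In basal cells 0 of 29 passed in edgeR's quasi-likelihood test, where 1.32% of all genes did, and 1 had an unadjusted p below 0.05, as did 14.5% of all genes. That gene was Adipoq, at 0 counts in the basal duct libraries and at least 19.8-fold higher in basal TEBs (edgeR FDR = 0.19). The likelihood ratio test called 1 marker (Adipoq), limma voom 2 (Adipoq and Dcn) and DESeq2 0, though it gave Adipoq no adjusted p. How large a share of all genes these tests called is not given here. The groups did not overlap for Adipoq and Adgre1, which were higher in basal TEBs, as were 8.88% of all genes, and for Dcn and Pdgfrb, which were lower, as were 11.9% of all genes.

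The endothelial markers had a median log2 fold change of -2.36 for basal TEBs against basal ducts, and none of the 6 passed. Over the 29 markers the median was -1.08, against -0.03 over all genes. Both directions turned without basal duct replicate 2, to a median of 0.40 for the endothelial markers, of which 5 of 6 were above 0, and of 0.15 over the 28 markers then tested. Leaving out that library, alone or with luminal duct replicate 3, also gave 0 calls.

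In luminal cells 0 of 29 passed in edgeR's quasi-likelihood test, where 1.41% of all genes did, and 3 had an unadjusted p below 0.05 (Dcn, Cd79a and Ptprc), as did 16.6% of all genes. The lowest p was that of Dcn, at 2.44 ± 1.26 (SD, n = 3) CPM in TEBs and 13.8 ± 15.4 (SD, n = 2) CPM in ducts, with a log2 fold change of -2.48 ± 0.68 (SE, edgeR FDR = 0.0965). DESeq2 and the likelihood ratio test each called 2 markers, Cd79a and Dcn, and limma voom 0. The shares of all genes that these tests called are not given here. The median log2 fold change of the 29 markers was -1.82, against 0.04 over all genes. Without luminal duct replicate 3 it turned, with 24 of the 31 markers then tested above 0. That fit keeps luminal duct replicate 1 alone, where 20 of the 31 markers had 0 counts. For those markers any count in a luminal TEB library gives a positive sign. The 24 signs therefore cannot tell a change in TEBs from 0 counts in 1 library. The groups did not overlap for Fcer1g and Hba-a1, which were lower in TEBs, as were 17.4% of all genes, and for 0 markers that were higher, as were 26.2% of all genes. These values depended on the luminal duct libraries. Without luminal duct replicate 1 the log2 fold change of Dcn was -3.33, and without luminal duct replicate 3 it was -0.24. Either fit leaves 1 luminal duct library.

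The test of whether TEB and duct differed by another amount in basal than in luminal cells called 0 of 29 markers, where 0.443% of all genes passed, and 0 had an unadjusted p below 0.05, as did 14.7% of all genes. DESeq2, limma voom and the likelihood ratio test also called 0. The lowest p was that of Cd79a, with a difference of log2 fold changes of 3.43 ± 1.76 (SE, edgeR FDR = 0.387). Its sign turned without luminal duct replicate 3, to -2.99 (edgeR FDR = 0.453), and without luminal duct replicate 1 it was 4.43 (edgeR FDR = 0.0454). Luminal duct replicate 3, on which these values turn, also had the highest mitochondrial share of the luminal libraries (28.5%), and basal TEB replicate 1, with 20 markers at 0, that of the basal ones (37.5%). The part of the mitochondrial share in the marker levels was not tested, and Dcn and Fbn1 passed between cell types in both structures without these libraries.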

How the data were processed

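RNA-seq counts of 11 libraries were used, in the groups the labels give. The authors deposited unnormalized counts of read pairs for each Entrez gene. Paired reads of 80 bases had been mapped to mm10 and counted by Rsubread with its built-in RefSeq genes (featureCounts per the labels, version not given in the sources used here). Gene lengths, used for RPKM, are those deposited. No per-sample column was left unused (0), and the column of each library equalled its own file. Symbols came from RefSeq (GRCm38.p6) for 25275 identifiers. Ahsp and Hbb-bt, 2 of 98 further markers, were not matched.

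The versions were 4.3.3 of R, 4.0.16 of edgeR, 3.58.1 of limma and 1.42.0 of DESeq2. The filter was filterByExpr, with 10 as minimum count and 15 as minimum total. Counts were scaled by TMM and fitted in 1 model over 4 groups with the quasi-likelihood test. The methods of the study name edgeR's estimateDisp and glmFit. Adjusted p-values (FDR) are Benjamini-Hochberg over 17370 genes, and the SE is the absolute log2 fold change over the root of F. A bound sets a group at 0 counts to 3 counts in the library where these are the most CPM. The script was tested on simulated counts.

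The markers and lists were chosen with earlier results of these data known. Every one of the 31 is accounted for, and fold changes are given for those called or, where none was, for the one with the lowest p, and for the 3 further markers called that had the largest fitted change. Replicates are pools of mice, so p-values measure the spread between pools. Alternatives were other scalings, filters and tests, the replicate number as a block, removal of mitochondrial genes and libraries left out.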

Additional observations from a re-analysis of the deposited data

How the results depend on the processing

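Dcn and Fbn1 stayed higher in basal cells in both structures under each of 24 alternatives, with log2 fold changes of 3.64 to 6.73 and 4.76 to 9.70 in ducts and 5.45 to 6.11 and 6.67 to 7.55 in TEBs. With each library left out in turn, the markers called numbered 3 to 4 for basal against luminal ducts, 3 to 5 in TEBs, 0 to 0 for TEBs against ducts in basal cells, 0 to 3 in luminal cells and 0 to 1 for the interaction, where the 1 was Cd79a without luminal duct replicate 1. In basal cells the likelihood ratio test called 1 marker between TEBs and ducts and limma voom 2. In luminal cells the likelihood ratio test and DESeq2 called 2 each. Without the libraries with most mitochondrial counts (basal TEB replicate 1 and luminal duct replicate 3), the calls were 7 in ducts, with Cd79a, Dpt, Pdgfra and Pdgfrb added, 1 in luminal cells and 1 for the interaction (Pdgfrb in both). The cause was not tested. For the alternatives, here and above, the share of all genes called is not given, so their counts of markers have no background. The interaction of Cd79a turned to -2.94 without those libraries, to -2.99 without luminal duct replicate 3 (range with each library left out -2.99 to 4.43) and to -2.36 without basal duct replicate 2 and luminal duct replicate 3, the last chosen after seeing the data. By library size alone the highest immune sum was 87.4 CPM, in basal duct replicate 2, and the highest fibroblast sum 681 CPM, in basal duct replicate 1. Without mitochondrial genes the highest fibroblast sum was 800.2 CPM.

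The labels do not say whether samples with the same replicate number share a pool of mice or a sort day. Of 15 same-numbered pairs, 4 had a correlation of deviations over 0.1 (range -0.07 to 0.16). The 30 other pairs ranged from -0.16 to 0.14, and 7 of 11 libraries correlated best with their own number. Deviations were taken from the group mean, so the 2 luminal duct libraries mirror each other. Their correlations with any other library are equal with opposite signs. Luminal TEB replicate 1 gave 0.16 with luminal duct replicate 1 and -0.16 with luminal duct replicate 3, so these extremes are 1 value. These correlations do not settle whether more than the number is shared. With the replicate number as a block, the calls were 3 in ducts, 3 in TEBs and 0 in the other comparisons, and the adjusted p of Adipoq in TEBs was 0.123. The share of all genes called with this block is not given, so these counts have no background either. Library size alone moved the log2 fold change of the median gene to 0.42 for luminal TEBs against ducts, -0.35 for basal against luminal TEBs and -0.63 for the interaction. DESeq2 gave no adjusted p for Adipoq between basal TEBs and ducts, the filter on mean CPM removed Adipoq, and the fit of the compared groups alone has no interaction. Markers at a few counts, with 0 in some replicates, limit what can be detected, and luminal ducts rest on 2 libraries.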
